A study of Oryza sativa and Oryza rufipogon with 8 samples.

Results

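A set of 7 transporter genes of rice roots is described here, with their RNA levels in plants grown without Fe (−Fe) and with Fe (control condition, CC). They are *TOM1* (OS11G0134900), *TOM2* (OS11G0135000), *ENA1* (OS11G0151500), *ENA2* (OS06G0695800), *PEZ1* (OS03G0571900), *FRDL1* (OS03G0216700) and *OPT7* (OS03G0751100). They were chosen by gene identifier, as exporters of mugineic acid, nicotianamine, phenolics and citrate together with *OPT7*, and make up 7 of the 35679 genes listed for *O. sativa*. In *O. rufipogon*, a wild relative of cultivated rice, the partners used were those the study lists as orthologs, for *ENA1* (ORUFI11G03210) and *OPT7* (ORUFI03G35800). They are 2 of the 37071 genes listed for that species. By their identifiers, *TOM1*, *TOM2* and *ENA1* lie on chromosome 11, *ENA2* on chromosome 6, and *PEZ1*, *FRDL1* and *OPT7* on chromosome 3. Both *O. rufipogon* partners carry the same chromosome number as their *O. sativa* counterparts.

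The groups were −Fe roots of *O. sativa* cv. Nipponbare, CC roots of the same cultivar, and −Fe and CC roots of 1 *O. rufipogon* accession, BRA 00004909-8. The −Fe nutrient solution had no Fe added and the CC solution held 100 µM Fe-EDTA, for 5 days, with plants at the 3-leaf stage when roots were taken. All plants, −Fe ones included, had first grown in the same solution with 100 µM Fe-EDTA. Each group had 2 libraries, each pooled from the roots of 3 plants, so n = 2 for every mean and each species is represented by 1 genotype.

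Grasses take up Fe(III) by the chelation strategy. Roots make deoxymugineic acid from nicotianamine, release it into the soil through an exporter, and take the Fe(III) complex back up through a YSL transporter. TOM1 is the exporter that releases deoxymugineic acid to the rhizosphere, and TOM2 moves it between tissues inside the plant. ENA1 and ENA2 export nicotianamine, its precursor and itself a metal chelator. PEZ1 carries phenolics such as protocatechuic acid into the xylem, and FRDL1 carries citrate there, the chelator that accompanies Fe on its way to the shoot. OPT7 belongs to the oligopeptide transporters, and its substrate is not known.

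The estimated counts summed to 24123205 and 25312301 in the −Fe libraries of *O. sativa* and to 22911261 and 23019020 in its CC libraries, and 3 counts were worth 0.119 to 0.131 CPM (counts scaled to a common library size). In *O. rufipogon* the sums were 17145733 and 18857150 under −Fe, and 14758304 and 17256880 under CC. Summed TPM (transcript abundance corrected for length and scaled to a common total) of 3 root genes, among them the silicon channel gene *LSI1*, was 1620 and 2014 under −Fe, against 4231 and 3976 under CC in *O. sativa*. None of the 3 was at 0, and 2 passed the edgeR test as lower under −Fe (1 without −Fe replicate 1, 3 without CC replicate 1). The part of this shift in the results below was not tested, and in whole roots fewer cells of a type and less RNA per cell cannot be told apart. For 5 leaf genes, none at 0, the summed TPM was 517.0 and 196.4 under −Fe, against 368.2 and 560.0 under CC, and 0 of 5 passed the edgeR test (0 also at an unadjusted p of 0.05 and by DESeq2, but 2 as lower without −Fe replicate 1).

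Levels are compared between genes in TPM throughout. Under −Fe, *TOM1* stood far above the rest with a level of 1674 ± 7.07 TPM (SD, n = 2). It was followed by *ENA1* with 187.4 ± 0.141, *OPT7* with 153.4 ± 25.2, *FRDL1* with 72.5 ± 8.49, *ENA2* with 30.2 ± 2.79, *TOM2* with 9.91 ± 2.24 and *PEZ1* with 4.02 ± 0.707 TPM. Each gap between neighbours in that order was larger than the SD of either neighbour, the narrowest relative to the SD being the 34 TPM between *ENA1* and *OPT7*. Under CC the order was *TOM1* with 155.2 ± 36.7, *ENA1* with 60.4 ± 0.247, *FRDL1* with 55.6 ± 6.49, *OPT7* with 13.3 ± 1.52, *ENA2* with 12.4 ± 1.92, *TOM2* with 6.30 ± 0.680 and *PEZ1* with 3.32 ± 0.929 TPM. Here *ENA1* and *FRDL1* differed by 4.79 TPM and *OPT7* and *ENA2* by 0.845 TPM, both less than the SD of a neighbour. *OPT7* thus stood above *FRDL1* under −Fe and below it under CC. The 7 genes together reached 2114 and 2149 TPM under −Fe, against 288 and 325 TPM under CC, and *TOM1* held 79.0 and 78.1% of that sum under −Fe, against 44.9 and 55.7% under CC.

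**Figure D1:**
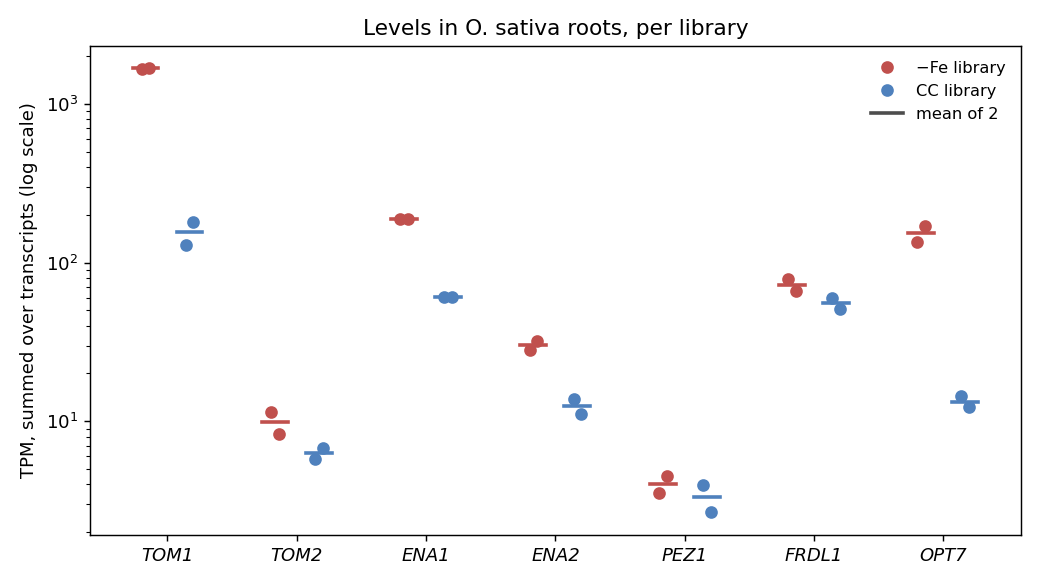
RNA level of the 7 genes in *O. sativa* roots, in TPM on a log scale, with one point per library (−Fe left, CC right) and a line at the mean of 2. *TOM1* is highest in both conditions, and the −Fe and CC points of *PEZ1* overlap. With 2 libraries a group, points that lie apart are a description and no test.

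*TOM1* RNA, which encodes the exporter that releases deoxymugineic acid, was 10.9-fold higher without Fe. Its level was 2548 and 2687 CPM under −Fe, against 197.4 and 280.9 CPM under CC. Both −Fe libraries lay far above both CC libraries, which also differed between themselves more than the −Fe pair did in relative terms. On the log2 scale the fold change was 3.45 (SE 0.181, 95% interval 3.02 to 3.88), with an adjusted p of 6.66e-05 by edgeR's quasi-likelihood test with Benjamini-Hochberg adjustment over 25767 genes. It ranked 133rd of those genes by fold change. The estimate was not a whole number in 4 of 4 libraries, so reads were divided between *TOM1* and other genes. Those genes were not searched for, because the search left out genes with counts this high.

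*TOM2*, whose identifier follows that of *TOM1* on chromosome 11, had a far lower RNA level and a far smaller difference. It was at 13.8 and 10.9 CPM under −Fe, against 6.95 and 7.93 CPM under CC, with no overlap between the groups. The log2 fold change was 0.73 (SE 0.169, 95% interval 0.34 to 1.11), a 1.66-fold rise with an edgeR adjusted p of 0.0371. This call was lost without −Fe replicate 1, without CC replicate 1 and without CC replicate 2 (edgeR adjusted p between 0.0430 and 0.233 over the 4 fits that leave out a library), and with the replicate number as a block (0.0683). *TOM2* shared reads with OS12G0132800, and the 2 genes summed had a log2 fold change of 0.65 (adjusted p 0.0415 by edgeR). The intervals of the *TOM1* and *TOM2* fold changes lay apart, though that difference itself was not tested.

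Around these genes, 15 identifiers from OS11G0134000 to OS11G0136500 other than *TOM1* and *TOM2* were listed and 10 were tested. Of these, 1 was higher and 1 lower under −Fe, where 2.98% of all genes tested were called higher and 3.65% lower. The higher one was OS11G0134950, numbered between *TOM1* and *TOM2*, for which the sources used here give no name. It was at 9.18 and 10.2 CPM under −Fe, against 0.386 and 0.477 CPM under CC, where its level was a few times that of 3 counts. Its log2 fold change was 4.47 (SE 0.263, edgeR adjusted p 1.80e-05). Its estimate was not whole in 4 of 4 libraries, so it too shared reads, with genes that were not searched for. The lower one, OS11G0134700, had a log2 fold change of −0.60 (adjusted p 0.0320 by edgeR), a call lost whenever −Fe replicate 1, −Fe replicate 2, CC replicate 1 or CC replicate 2 was left out (−0.51 to −0.68).

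*ENA1*, the nicotianamine exporter gene, was 3.15-fold higher under −Fe and had the closest replicates of the 7 genes. Its level was 270.2 and 282.8 CPM under −Fe, against 87.3 and 88.1 CPM under CC. The groups were wide apart relative to the distance within each. This gave a log2 fold change of 1.66 (SE 0.0786, 95% interval 1.48 to 1.83), with an edgeR adjusted p of 4.36e-06. Its estimate was whole in every library, as was that of *ENA2*.

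*ENA2*, the other nicotianamine exporter gene, was 2.47-fold higher and stood well below *ENA1* in both conditions. It had 29.1 and 34.8 CPM under −Fe, against 14.2 and 11.6 CPM under CC, again with no overlap. Its log2 fold change was 1.30 (SE 0.139, 95% interval 0.99 to 1.62, edgeR adjusted p 0.000739).

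*PEZ1*, the phenolics exporter gene, was the only one of the 7 that did not pass the test. It was at 5.43 and 7.32 CPM under −Fe, against 6.13 and 4.20 CPM under CC, so that the groups overlapped. The log2 fold change was 0.30 (SE 0.246, edgeR adjusted p 0.565), and its 95% interval of −0.26 to 0.86 leaves room for a rise as large as that of *TOM2*. The estimate was not whole in 4 of 4 libraries, and no single gene was found that completed it.

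*FRDL1*, which encodes the citrate exporter, was 1.32-fold higher, and its call depended on the analysis. Its level was 151.9 and 134.8 CPM under −Fe, against 116.5 and 100.3 CPM under CC, without overlap. The log2 fold change was 0.40 (SE 0.0980, 95% interval 0.18 to 0.63), with an edgeR adjusted p of 0.0457, just inside the threshold of 0.05. *FRDL1* shared reads with OS03G0216733, whose level was 82.6 and 73.3 CPM under −Fe, against 77.4 and 89.4 CPM under CC. With both genes summed, the level was 234.5 and 208.1 CPM under −Fe, against 193.9 and 189.7 CPM under CC. The sum had a log2 fold change of 0.21 and was not called (edgeR adjusted p 0.220). OS03G0216733 alone had a log2 fold change of −0.10, so adding it lowers that of *FRDL1* however few reads are shared. The call was also lost whenever 1 of the 4 libraries was left out, −Fe replicate 1, −Fe replicate 2, CC replicate 1 or CC replicate 2, with log2 fold changes of 0.30 to 0.52 and edgeR adjusted p values of 0.0718 to 0.330.

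*OPT7*, the oligopeptide transporter gene with no known substrate, had the largest fold change of the 7 genes as fitted. It was at 256.5 and 334.9 CPM under −Fe, against 25.4 and 23.4 CPM under CC. Both −Fe libraries were about an order of magnitude above the CC libraries, and they differed from each other by more than the CC pair did. On the log2 scale it rose by 3.60 (SE 0.147, 95% interval 3.25 to 3.95), 12.1-fold, with an edgeR adjusted p of 2.82e-05. The intervals of *OPT7* and *TOM1* overlapped, so their fold changes were not told apart. The reads it shared with OS03G0751200 were few, and the log2 fold change of both summed was also 3.60.

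Of the 7 genes, 6 passed the edgeR test as higher under −Fe and 0 as lower. Over all 25767 genes tested, 2.98% were called higher, 3.65% lower and 6.63% in either direction. All 7 genes passed the filter on low counts, and *PEZ1* was the 1 member not called (0 members were lower at an unadjusted p of 0.05 or by DESeq2). The median log2 fold change was 1.30 over the 7 genes and −0.005 over all genes tested. The members were chosen with earlier results of these data known, so the count and the median only describe the set. By fold change, *OPT7* ranked 119th, *TOM1* 133rd, *ENA1* 467th, *ENA2* 706th, *TOM2* 1627th, *FRDL1* 3289th and *PEZ1* 4311th. The count of genes called was sensitive to single libraries, being 828 without −Fe replicate 1, 780 without CC replicate 1 and 613 without CC replicate 2, against 1708 with all 4. The calls of *TOM1*, *ENA1*, *ENA2* and *OPT7* remained in each of the 4 fits that left out a library.

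**Figure D2:**
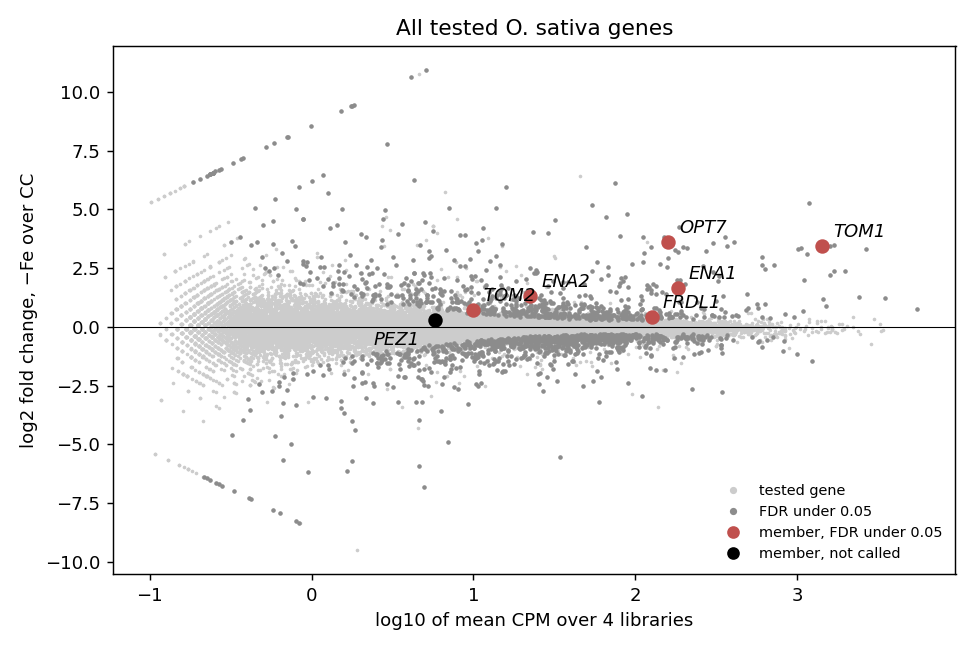
Log2 fold change (−Fe over CC) of every gene tested in *O. sativa* roots, plotted against its mean CPM over 4 libraries on a log10 scale, with the 7 genes named. *TOM1* and *OPT7* lie above 3 on the log2 scale, *ENA1* and *ENA2* between 1 and 2, and *PEZ1*, in black, is the member not called.

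**Figure D3:**
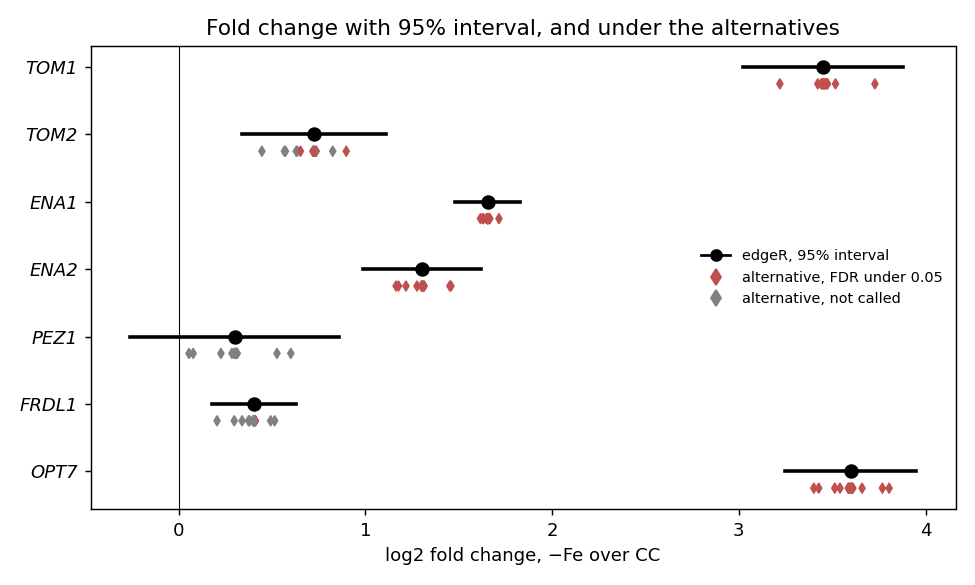
Log2 fold change (−Fe over CC) of the 7 genes in *O. sativa* with its 95% interval from edgeR, with one diamond below for each alternative analysis, red where the adjusted p was under 0.05. *TOM1*, *ENA1* and *OPT7* are red throughout, *TOM2* and *FRDL1* are mixed and *PEZ1* is grey throughout. *ENA2* has 1 grey diamond, at 1.30, hidden behind red ones.

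The 7 genes had 10 transcripts, of which 9 passed the filter on low counts and 5 were called, all higher under −Fe, where 1.72% of 30675 transcripts tested were called higher, 1.67% lower and 3.39% in either direction. *OPT7* rose in both of its transcripts. Transcript 1 (2699 nt) was at 76.6 and 90.6 TPM under −Fe, against 5.65 and 6.79 TPM under CC, with a log2 fold change of 3.77 (adjusted p 0.000659 by edgeR). Transcript 2 (1819 nt) was at 59.0 and 80.6 TPM under −Fe, against 8.72 and 5.43 TPM under CC, with a log2 fold change of 3.33 (adjusted p 0.0303 by edgeR). Transcript 1 held 54.5% of the *OPT7* TPM under −Fe and 46.8% under CC.

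Neither *TOM2* transcript passed the test alone. Transcript 1 (1851 nt) was at 3.09 and 3.13 TPM under −Fe, against 1.55 and 1.01 TPM under CC, a log2 fold change of 1.30 with an edgeR adjusted p of 0.0767. Transcript 2 (1342 nt), the more abundant one, was at 8.41 and 5.20 TPM under −Fe, against 4.28 and 5.77 TPM under CC, with overlapping groups and an edgeR adjusted p of 0.492. Transcript 1 held 31.4% of the *TOM2* TPM under −Fe and 20.3% under CC. All counts of *ENA2* fell on transcript 2 (1276 nt), with transcript 1 (1532 nt) listed at 0 in all 4 libraries. The other genes had 1 transcript each, and those of *FRDL1* and *PEZ1* were not called among transcripts (edgeR adjusted p 0.122 and 0.641).

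**Figure D4:**
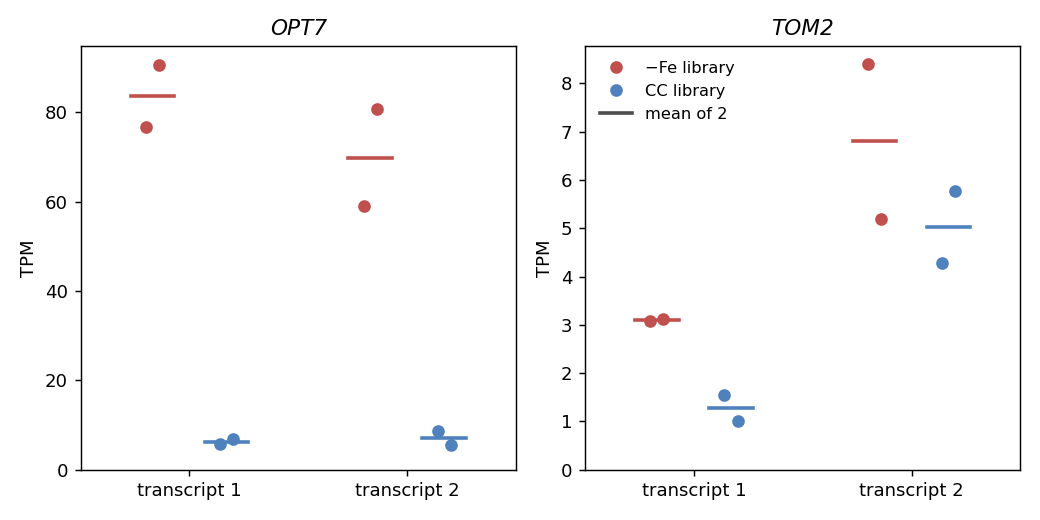
TPM of the transcripts of *OPT7* and *TOM2* in *O. sativa* roots, on linear axes from 0, with one point per library (−Fe left, CC right) and a line at the mean of 2. Both *OPT7* transcripts lie above 58 TPM in the −Fe libraries and under 9 TPM in the CC libraries, while the points of *TOM2* transcript 2 overlap.

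In *O. rufipogon* roots both partners were higher under −Fe. The pairs come from orthologs that were listed because both genes changed in these libraries, so that their rise is a description. *ENA1* was at 78.7 and 81.3 CPM under −Fe, against 14.95 and 10.56 CPM under CC, with a log2 fold change of 2.65 (SE 0.190, 95% interval 2.19 to 3.12, edgeR adjusted p 0.00183), a 6.28-fold difference. *OPT7* was at 142.0 and 112.6 CPM under −Fe, against 8.71 and 7.93 CPM under CC, with a log2 fold change of 3.94 (SE 0.170, 95% interval 3.52 to 4.35, edgeR adjusted p 0.000722), a 15.3-fold difference. Neither pair of groups overlapped. Of 21081 *O. rufipogon* genes tested, 11.9% were called higher under −Fe, 4.15% lower and 16% in either direction. That background moved widely with single libraries, with 112 genes called without −Fe replicate 1, 357 without −Fe replicate 2, 9604 without CC replicate 1 and 6562 without CC replicate 2, against 3378 with all 4. Both partners were called in each of those fits. Partners of the other 5 genes were not analysed here.

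A difference in response between wild and cultivated rice was tested as an interaction of species and treatment over the listed ortholog pairs. Of these pairs 36 (35.3%) were called, 23 (22.5%) with the more positive fold change in *O. rufipogon* and 13 (12.7%) with the more negative one. For *ENA1* the log2 fold change was 2.65 in *O. rufipogon* and 1.66 in *O. sativa*. The difference, *O. rufipogon* minus *O. sativa*, was 0.998 (SE 0.187, 95% interval 0.59 to 1.41), with an edgeR adjusted p of 0.00134. It was between 0.76 and 1.24 in all 13 alternatives and called in each. The level of *ENA1* under CC was 12.8 ± 3.10 CPM in *O. rufipogon* and 87.7 ± 0.614 CPM in *O. sativa* (SD, n = 2 each), though the tables of each species list its own transcripts and these levels were not tested against each other.

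For *OPT7* the log2 fold change was 3.94 in *O. rufipogon* and 3.60 in *O. sativa*. Their difference of 0.34 (SE 0.220, 95% interval −0.14 to 0.82) did not pass the test (edgeR adjusted p 0.268). The interval reaches 0.82 on the log2 scale, so that with these libraries a response as much larger in *O. rufipogon* could have gone uncalled.

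**Figure D5:**
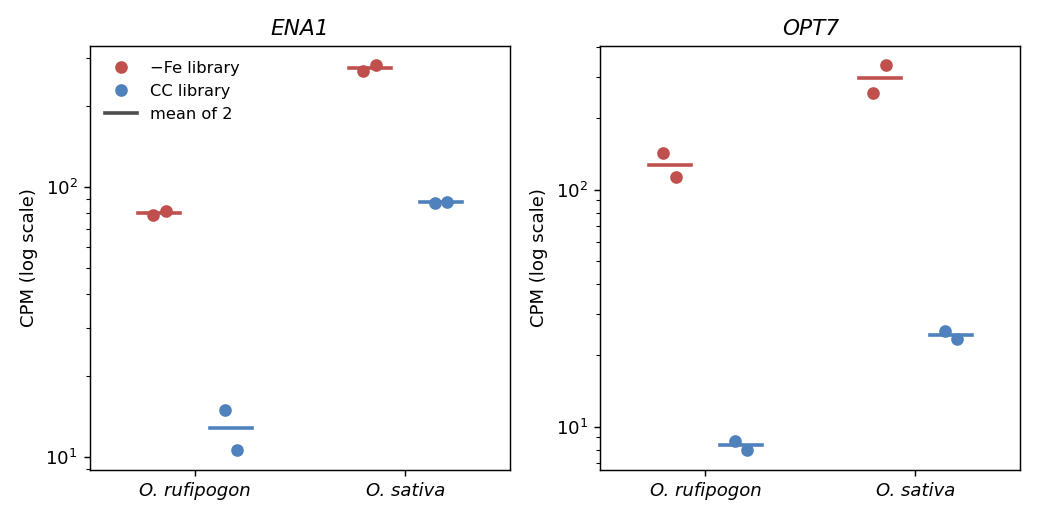
CPM of *ENA1* and *OPT7* on log scales, in *O. rufipogon* (left) and *O. sativa* (right), with one point per library (−Fe left, CC right within a species) and a line at the mean of 2. The vertical distance between −Fe and CC, a log2 fold change of 2.65 and 1.66 for *ENA1* and of 3.94 and 3.60 for *OPT7*, is the response that was compared between the species.

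The other genes of Fe acquisition in *O. sativa* place these values, in lists also chosen with earlier results of these data known. In mugineic acid synthesis, 6 of 6 genes were higher under −Fe, with a median log2 fold change of 3.28. With the replicate number as a block this was 5 of 6, since *DMAS*, the deoxymugineic acid synthase gene, then had an edgeR adjusted p of 0.147 at a log2 fold change of 3.24. The range ran from 1.13 for OS07G0689600 and 1.38 for *SAM2*, which makes S-adenosylmethionine, to 3.44 for *NAS1*, a nicotianamine synthase, and 3.50 for OS03G0307200. In TPM, *NAS1* was at 2311 and 2778 under −Fe, against 217.2 and 260.7 under CC, above *TOM1* in both conditions. The estimates of *SAM2*, *NAS1*, OS03G0307200, *DMAS*, *IRO2*, *IRT1*, *IRT2*, *NRAMP1* and OS04G0524600 were not whole in 4 of 4 libraries, nor were those of *YSL15* in 3 and OS03G0572900 in 2, so the values of these genes are uncertain to the extent of the reads they share.

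In the uptake of Fe chelates, 4 of 5 genes were higher and 1 was lower under −Fe, with a median of 1.75. Only 3 were called higher without −Fe replicate 2, without CC replicate 1 or without CC replicate 2, the call lost being that of OS02G0649900. *YSL15*, the Fe(III)-deoxymugineic acid transporter, rose by 2.99 on the log2 scale (edgeR adjusted p 6.21e-07), while OS02G0649900 reached 3.63 at only 1.44 and 4.55 CPM under −Fe, against 0.172 and 0.303 CPM under CC. The 1 lower gene, OS04G0524600, changed by −1.21 (edgeR adjusted p 0.000799). Among 5 regulators, 4 were higher and 0 lower, with a median of 2.53. The highest was *IRO2*, a bHLH transcription factor of the Fe deficiency response, at 3.43 (edgeR adjusted p 1.13e-06), and OS08G0101000 was not called (0.13, edgeR adjusted p 0.559).

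All 3 genes listed under ferrous Fe uptake were higher under −Fe, with log2 fold changes of 1.98 for *IRT1*, 3.82 for *NRAMP1* and 4.07 for *IRT2*. The study regards the role of *NRAMP1* in Fe uptake as not yet clear. *IRT2* was at only 8.89 and 12.3 CPM under −Fe, against 0.557 and 0.693 CPM under CC. Of 3 further loci entered by identifier as possible relatives of *PEZ1* and *FRDL1*, for which the sources used here give no name, 1 was higher. This was OS03G0572900, at 104.2 and 120.4 CPM under −Fe, against 59.1 and 63.1 CPM under CC, with a log2 fold change of 0.88 (adjusted p 0.000571 by edgeR). The other two, OS10G0206800 and OS01G0919100, had log2 fold changes of −0.13 and −0.20 and were not called.

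For each member that was called, the genes with the most similar pattern over the 4 *O. sativa* libraries were found among 19274 genes, by the root mean square difference of their centred log2 CPM. For *TOM1* these were OS01G0495701 (difference 0.0633, log2 fold change 3.42) and *IRO2* (0.0756). For *ENA1* they were OS01G0734800 (0.0208, log2 fold change 1.70) and OS04G0652400 (0.0385, log2 fold change 1.87), and for *ENA2* OS01G0857200 (0.0453, log2 fold change 1.37) and OS06G0133600 (0.0565, log2 fold change 1.52). *OPT7* was most like OS05G0519300 (0.0956, log2 fold change 3.92) apart from OS05G0319800 (0.0852). That gene had 4.98 and 6.75 CPM under −Fe and lay below the level of 3 counts in both CC libraries, so its likeness to *OPT7* depends on the 0.5 added to the CPM, and its fitted log2 fold change of 7.78 was far from the 3.60 of *OPT7*.

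The nearest genes to *TOM2*, OS05G0582300 and OS12G0556300, had log2 fold changes of 0.73 and 0.88 but were not called (edgeR adjusted p 0.0549 and 0.124). Those nearest to *FRDL1*, OS09G0403967 and OS08G0460600, had 0.47 and 0.41 and were not called either (edgeR adjusted p 0.327 and 0.182). The 0.5 added to the CPM also weighs on other likenesses named here, where levels under CC were low. Under CC, OS05G0519300 had 1.07 and 1.13 CPM, OS04G0652400 1.59 and 1.60, and OS12G0556300 1.33 and 1.60. The genes nearest to *ENA2* were also low there, OS01G0857200 with 2.62 and 1.91 CPM and OS06G0133600 with 2.49 and 2.17. So was OS09G0403967, with 2.92 and 2.47 CPM. The measure rests on 4 libraries in 2 groups, and says nothing beyond the likeness of these values.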

How the data were processed

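RNA of 8 root libraries was sequenced by the authors as single reads, quality filtered, trimmed and assigned to transcripts with kallisto. The labels name FastQC, kallisto and the build IRGSP 1.0, and the versions and the transcript release are not given in the sources used here. The authors deposited estimated counts and TPM per transcript. The tables of each species list its own transcript identifiers, although the labels name IRGSP 1.0 for the *O. rufipogon* libraries too, so levels are less comparable between species than within one.

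Estimated counts were summed over the transcripts of a gene and rounded. TPM was summed as deposited. Per species, genes that reached 5 counts in 2 or more of its 4 libraries entered the test of edgeR 4.0.16 (TMM, robust quasi-likelihood test, R 4.3.3), Benjamini-Hochberg adjusted over all genes, with a threshold of 0.05. CPM values are TMM-scaled. The SE is the size of the log2 fold change divided by the square root of F. The interaction used all 8 libraries and the ortholog pairs listed in the study, with library sizes from the full tables. The procedure was tested on simulated data.

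A gene was taken to share reads where its estimate was more than 0.02 from a whole number, as for 13043 *O. sativa* genes. The partner named is the single gene that completes it to a whole number in every library. That search was run for members only and left out genes of high count, *TOM1* among them. Floors of 3 counts cover counting error only. No exact permutation of 2 against 2 libraries can go below p = 0.333, so p values come from the fit across genes. The labels call the libraries biological replicates.

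Named were the 7 genes and their partners, for each called member its 2 most alike genes with a mean count of at least 50 (likeness on log2 CPM + 0.5), and up to 4 genes of a list, those with the largest and smallest fold changes. The read-sharing genes were chosen after their values were seen. The members and lists were chosen with earlier results of these data known. Replicate numbers did not pair the libraries by the labels. Alternatives were DESeq2 1.42.0, median-ratio size factors, other count filters, limma 3.58.1 on log2 counts + 0.5 and on log2 TPM + 1 or + 0.1, a replicate block, a minimum log2 fold change of 1, the most abundant transcript and leaving out each library. Added after seeing the data were a crossed block and sums with read-sharing genes. Promoters and protein sequences were not analysed here.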

Additional observations from a re-analysis of the deposited data

Results flagged for a closer look

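The response of *ENA1* to −Fe differed between the species by the interaction test. The log2 fold change was larger in *O. rufipogon* than in *O. sativa* by 0.998 (SE 0.187, edgeR adjusted p 0.00134 over the ortholog pairs). In that test 36 of the listed pairs (35.3%) were called. Both −Fe libraries lay above both CC libraries in each species, for a pair listed because both genes changed in these libraries. What lies behind the difference was not tested, and species, genotype and transcript set cannot be told apart here.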

How the results depend on the processing

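No direction was reversed in any alternative run, for the 7 genes, the 2 partners or the interaction. *TOM1* (3.22 to 3.73 on the log2 scale), *ENA1* (1.62 to 1.72) and *OPT7* (3.40 to 3.81) in *O. sativa* were called in every alternative, as were *ENA1* (2.42 to 2.89) and *OPT7* (3.56 to 4.11) in *O. rufipogon*. *PEZ1* was called in none (0.06 to 0.60), nor was the *OPT7* interaction (0.13 to 0.53). For *ENA2* the call was lost against a minimum log2 fold change of 1 only (1.30, adjusted p 0.428 by edgeR). For *TOM2* it was lost with limma on log2 TPM + 1 (0.57) and + 0.1 (0.63), with the replicate block (0.72), against the minimum fold change (0.73), for the most abundant transcript (0.45) and in 3 of the 4 fits that leave out a library (0.57 to 0.83, against 0.90 in the fit that kept it). For *FRDL1* it was lost with limma on log2 TPM + 1 (0.38) and + 0.1 (0.38), against the minimum fold change (0.40), with the crossed block (0.40), for the transcript (0.40), when summed with OS03G0216733 (0.21) and without any library (0.30 to 0.52). The causes were not tested. Of 670 alternative values of 45 other *O. sativa* genes (the lists, the most alike and read-sharing genes, and the called neighbours of *TOM1*), 626 kept their side of the threshold, 36 lost a call and 8 gained one.

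In *O. sativa*, 1708 genes were called, 240 against the minimum fold change, 834 by the most abundant transcript and 613 to 1193 without a library. In *O. rufipogon* these numbers were 3378, 782, 775 and 112 to 9604, and of those called higher and lower the split was 2504 and 874 with edgeR, 2339 and 1323 with DESeq2, and 2521 and 1546 with limma on log2 TPM + 1. Of the ortholog pairs 36 were called, and 22 to 41 without a library. A fit without a library assumes that the lone library of its group varies as the others do.

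With the replicate block, 1717 genes were called in *O. sativa*, 3489 in *O. rufipogon* and 29 pairs in the interaction. Of the 7 genes *TOM2* alone lost its call. Among the lists, *DMAS* and the 2 root genes called in the main fit lost theirs. The remaining root gene, OS02G0662000, gained a call (edgeR adjusted p 0.000383). Libraries with the same number had a correlation of deviations of −0.12 in *O. sativa* and 0.06 in *O. rufipogon*. Whether they share more than a number cannot be told from 2 libraries a group. A crossed block, chosen after seeing the data, called 2036 *O. sativa* genes.

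With 2 pooled libraries a group and 1 genotype a species, the spread covers these libraries only, and small differences such as that of *PEZ1* could not be resolved.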
